A study of Mus musculus with 9 samples.

Results

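The genes examined are 36 mitochondrial genes of fatty acid beta-oxidation, of the breakdown of the branched-chain amino acids leucine, isoleucine and valine, and of propionate handling. They were chosen by name, with earlier results of these data known, as a list of enzymes and carriers by pathway step. Each matched 1 row among the 48795 gene IDs of the count tables. All 36 passed the filter on low counts. The cells were follicular B cells, the main resting B cells of the spleen, taken by CD23 selection from C57BL/6 mice with loxP sites around both copies of Yy1 (yy1 f/f), in the mock group as well. Yy1 encodes YY1, a zinc finger transcription factor. One group, tatcre (3 RNA libraries), received TAT-CRE, a Cre recombinase that enters cells, and the other, mock (3 RNA libraries), a mock treatment. LPS and IL-4, a pair of signals that drive B cells into activation, were then added to both groups. The text on the series gives 72 hours in 10% serum and the text on the samples 48 hours in 20% serum, and the sample text lists TAT-CRE also for the mock libraries, so groups were taken from the titles. Each of 3 spleens was divided over the treatments, but no label ties a library to its mouse, so the p-values reflect how far these libraries spread, which may be technical. The sources used here do not state the age or sex of the animals. By the titles, all tatcre libraries and no mock library met the recombinase, so exposure to it and loss of Yy1 cannot be told apart.

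Beta-oxidation shortens fatty acids inside mitochondria. Acyl groups enter as carnitine esters, and a cycle of dehydrogenation, hydration, a second dehydrogenation and thiolysis then releases acetyl-CoA, with extra isomerases and a reductase for unsaturated chains. The branched-chain amino acids are first transaminated, their ketoacids are decarboxylated by a large dehydrogenase complex, and the products pass through acyl-CoA steps that resemble beta-oxidation and pass electrons to the same carrier protein. Valine and isoleucine yield propionyl-CoA, which is carboxylated and rearranged to succinyl-CoA for the TCA cycle.

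The libraries held 22729187 to 28230727 gene counts. Yy1, the deleted gene, gave 2655, 3018 and 2542 counts in mock against 24, 36 and 50 counts in tatcre cells, so the labels matched the deletion. In mock 3, 20420 genes had a count, fewer than in any other library (21875 to 23197), and results that rest on it are given without it. B cell markers were abundant in every library. Their summed level over 9 genes was 5211 to 5522 CPM in mock and 4280 to 4360 CPM in tatcre libraries. Of these 9 genes, 5 were called lower (55.6%, against 16.3% of all tested genes). Of the markers of other cells, 8 T cell genes summed to 15.1 to 22.0 CPM in mock and 10.2 to 13.5 CPM in tatcre libraries, mostly from Lck. The 8 myeloid genes summed to 22.5 to 28.2 and 12.6 to 15.8 CPM, mostly from Cd68, while Cd14, S100a8 and S100a9 had 0 counts in all 6 libraries. The 6 NK cell genes and the 6 erythroid genes summed to at most 1.06 and 0.543 CPM in any library, and Hba-a2 and Hbb-bs were at 0 throughout. The 5 plasma cell genes summed to 352 to 408 CPM in mock and 307 to 358 CPM in tatcre libraries, mostly from Xbp1 and Jchain. Of the 4 tested, 1, Jchain, was called lower (25%, against 16.3% of all tested genes). The part of these marker shifts in the results below was not tested. In bulk RNA, fewer cells of a type and less RNA per cell cannot be told apart.

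YY1 is known to bind a short motif around ATGG that often lies just after the transcription start, so the promoter windows are described first. They were searched after the RNA fit, and the stretches shown were chosen with its results known. The windows came from RefSeq on GRCm38.p6, and run from 250 bases before to 50 bases after each start. The windows were searched for AANATGGC on both strands (GCCATNTT is the same motif read on the other strand). Of the 36 genes 31 had a window, and Acaa2, Acat1, Dbt, Decr1 and Mmut did not. The motif was in the windows of 6 genes, or 19.35% of those 31. By gene, this stood against 10.18% of 10007 tested genes with a window and 6.96% of all 27025 genes with one. Counted by single window, the share was 6.05% of all 32851. The genes with the largest falls, Eci1 and Hsd17b10, are shown from 120 bases before to 30 bases after the start, with the motif in capitals.
Eci1, chr17:24426563-24426712, plus strand: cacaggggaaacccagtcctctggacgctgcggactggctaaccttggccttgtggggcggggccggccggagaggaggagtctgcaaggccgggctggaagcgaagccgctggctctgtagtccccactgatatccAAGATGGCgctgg
Hsd17b10, chrX:152001776-152001925, plus strand: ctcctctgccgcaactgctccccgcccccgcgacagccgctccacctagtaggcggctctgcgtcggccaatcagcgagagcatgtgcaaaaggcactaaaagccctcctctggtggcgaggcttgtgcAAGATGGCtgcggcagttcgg
Counting the start as base 1, the match began at base 18 in Eci1 and at base 10 in Hsd17b10, both on the gene's own strand. The other matches are shown as 30 bases each, again with the motif in capitals, to compare their letters.
Bckdha, chr7:25658725-25658754, minus strand: ggttattagccAAGATGGCgatagtgatgt
Pccb, chr9:101034842-101034871, minus strand: aaaaaaaaaaaAAAATGGCggcggcgatta
Auh, chr13:52929628-52929657, minus strand: gctgtaaacatacAACATGGCggcggcggc
Acadsb, chr7:131410473-131410502, plus strand: cagctgtagccGCCATATTtgttgtgtctc
The matches in Bckdha, Pccb and Auh began at bases 19, 25 and 34, and that in Acadsb lay 117 bases before the start, with the motif on the opposite strand. Because the motif holds ATGGC, letters with which many coding sequences begin, a match after the start can also be a translation start. Echs1 and Ivd, which fell strongly as well, are shown over the same 150 bases because the full motif AANATGGC is not in their windows. The Echs1 stretch ends in gccatg, which holds the shorter ATGGC on the other strand.
Echs1, chr7:140116392-140116541, minus strand: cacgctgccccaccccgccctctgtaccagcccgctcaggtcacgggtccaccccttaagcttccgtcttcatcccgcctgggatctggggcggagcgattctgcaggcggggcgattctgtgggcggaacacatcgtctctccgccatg
Ivd, chr2:118861874-118862023, plus strand: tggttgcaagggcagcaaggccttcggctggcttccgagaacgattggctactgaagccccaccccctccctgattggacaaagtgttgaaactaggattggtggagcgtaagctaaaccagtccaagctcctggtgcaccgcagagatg
A match is a description of letters, not of binding, and the deposited peak lists were not used here because some coordinates lie beyond the last RefSeq gene of their chromosome in GRCm38, so that their build was not settled.

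RNA of the 36 genes was compared between tatcre and mock cells to ask which of them change when Yy1 is deleted in activated B cells. Of the 36, 17 were called lower, 4 higher and 15 were not called (edgeR quasi-likelihood test, Benjamini-Hochberg adjustment over all 15546 tested genes, threshold 0.05). Thus 47.2% were called lower, against 16.3% of all tested genes, and 11.1% higher, against 10.8%. The share of higher calls was therefore near that of all genes. The 36 genes were chosen with earlier results of these data known, so these shares describe the list and are no independent test. Because falls were more frequent among well-expressed genes, the 19 of these genes with a mean level of 4 to 8 on the log2 CPM scale were set beside all genes of that range: 36.8% of them were called lower, against 22.3%, and 15.8% higher, against 13.0%. At least 2-fold lower were 10 of the 36 (27.8%), against 3.44% of all tested genes. The libraries of both groups did not overlap, with tatcre lower, for the same number, 17 (47.2%, against 23.3% of all genes), and with tatcre higher for 6 (16.7%, against 20.6%). The median log2 fold change was -0.25 over the 36 genes and 0.02 over all tested genes. With library size alone as the scaling, which shifts the median of all genes to 0.13, 16 members were called lower and 6 higher, while over all genes 1894 were lower and 2614 higher. The number of higher calls rests on single libraries: 1 gene, Mmut, was left without mock 3, and 2 without tatcre 3.

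**Figure D1:**
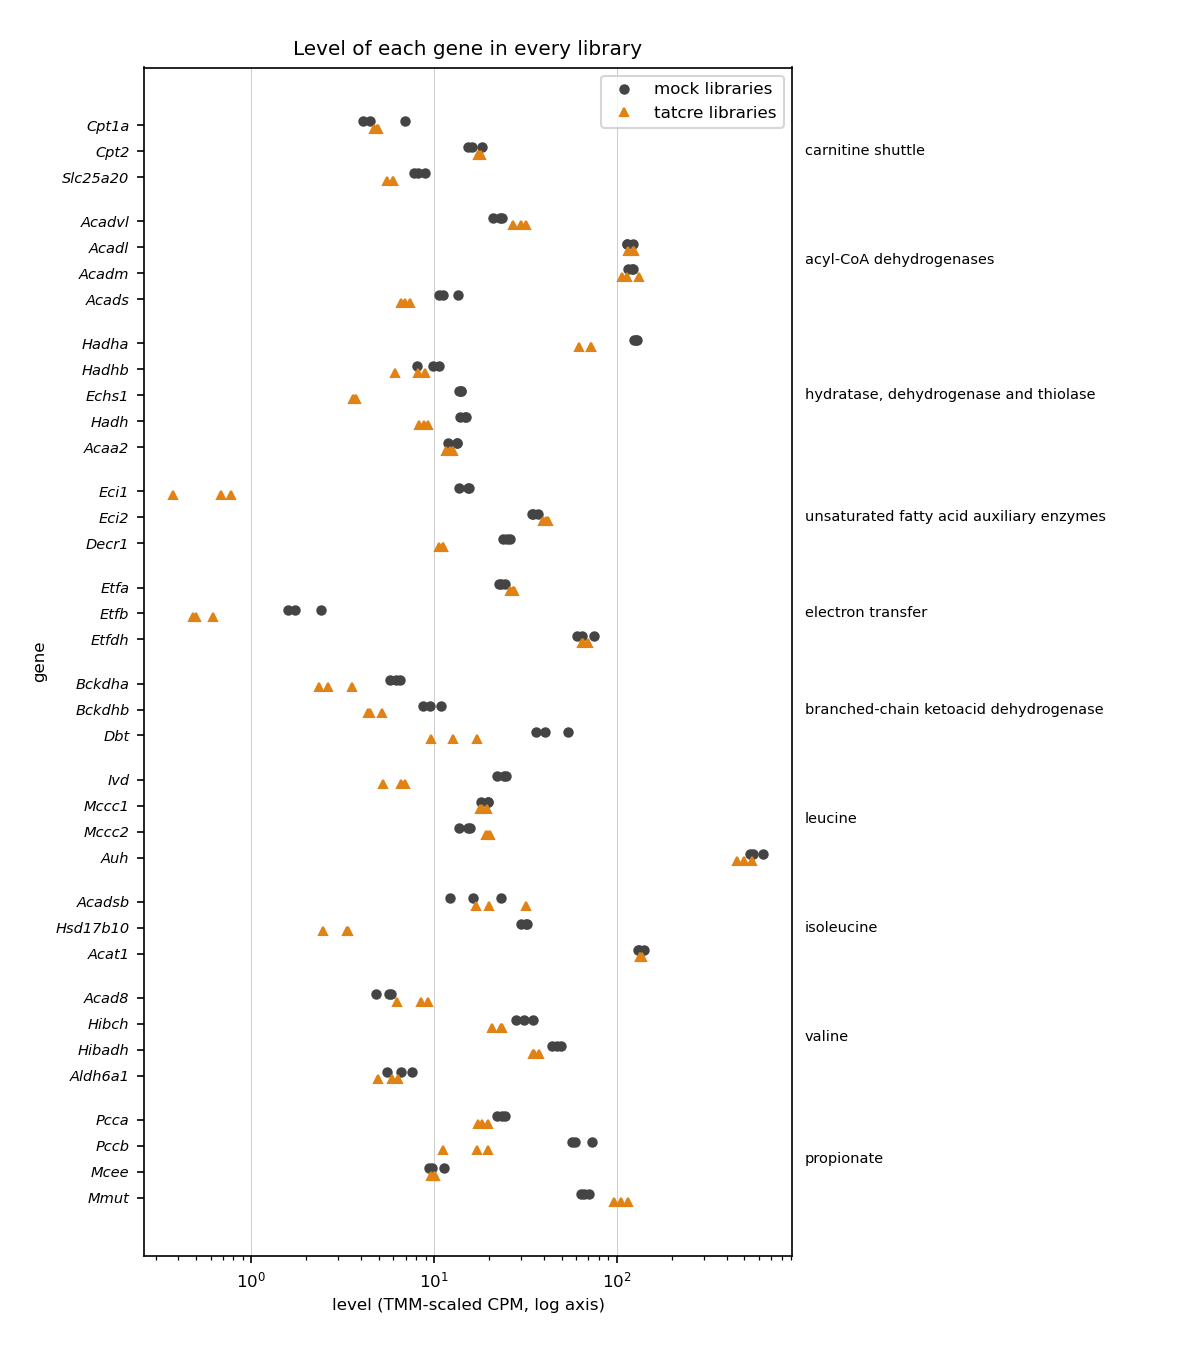
Level of each of the 36 genes in every library, as CPM on TMM-scaled library sizes (log axis), with genes ordered by pathway step. Circles are the 3 mock and triangles the 3 tatcre libraries; Eci1 and Hsd17b10 show the widest gaps, and the groups overlap for, among others, Cpt1a, Cpt2, Acadl, Acadm and Acat1.

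Of the 3 genes for entry into mitochondria, 1 fell (33.3%, against 16.3% of all tested genes). Carnitine palmitoyltransferase genes Cpt1a, the regulated outer membrane enzyme, and Cpt2, its inner membrane partner, were not called. Cpt1a stood at 6.92, 4.45 and 4.09 CPM (counts scaled to a common library size, with TMM-adjusted sizes) in mock and 4.96, 4.72 and 4.89 CPM in tatcre libraries. Cpt2 stood at 18.4, 15.3 and 16.1 CPM in mock and 17.6, 18.1 and 17.5 CPM in tatcre libraries. The groups overlapped for both, and the 95% intervals of the log2 fold change were -0.56 to 0.39 for Cpt1a and -0.14 to 0.34 for Cpt2. Slc25a20, the carrier that exchanges acylcarnitine for carnitine across the inner membrane, was at 8.96, 8.23 and 7.75 CPM in mock and 5.95, 5.51 and 5.97 CPM in tatcre libraries. Every tatcre library was below every mock library, a 1.43-fold fall (log2 fold change -0.52, SE 0.14, edgeR adjusted p = 0.019), which was not called without mock 1 (edgeR adjusted p = 0.061).

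The acyl-CoA dehydrogenases, which begin each turn of the cycle and differ in the chain length they accept, split. Among the 4 genes, 1 was called lower and 1 higher (25% each, against 16.3% and 10.8% of all tested genes). Acads, for short chains, was at 13.6, 11.2 and 10.6 CPM in mock and 7.42, 6.93 and 6.58 CPM in tatcre libraries. It fell 1.69-fold with no overlap (log2 fold change -0.76, SE 0.14, edgeR adjusted p = 0.0024). Acadvl, for very long chains, went the other way, from 23.7, 23.1 and 21.2 CPM in mock to 29.97, 27.0 and 31.9 CPM in tatcre libraries. Its 1.31-fold rise (edgeR adjusted p = 0.016) also had no overlap but was not called without mock 3, tatcre 1 or tatcre 3. Acadl, for long chains, and Acadm, for medium chains, were well expressed and not called. Acadl averaged 117 ± 4.98 CPM with mock treatment and 121 ± 4.81 CPM after TAT-CRE (mean ± SD, 3 libraries each) and Acadm 120.2 ± 3.94 and 118 ± 13.3 CPM. The intervals of their log2 fold changes, -0.12 to 0.22 and -0.23 to 0.17, exclude a 2-fold change in either direction.

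Of the enzymes of the later steps of each turn, hydration, dehydrogenation and thiolysis, 3 of 5 fell (60%, against 16.3% of all tested genes). Echs1, the hydratase for short chains that also serves valine and isoleucine breakdown, was at 14.0, 13.8 and 14.1 CPM in the mock libraries and 3.69, 3.59 and 3.77 CPM in the tatcre libraries. The replicates were close together and the groups far apart, a 3.79-fold fall (log2 fold change -1.92, SE 0.13, edgeR adjusted p = 3.9e-06). Echs1 overlaps the gene Paox in RefSeq, which was not called. Hadh, a hydroxyacyl-CoA dehydrogenase for short and medium chains, fell 1.65-fold, from 14.8, 14.9 and 13.8 CPM in mock to 9.27, 8.27 and 8.82 CPM in tatcre libraries (edgeR adjusted p = 0.001). Hadha, the subunit of the trifunctional protein with hydratase and dehydrogenase activity for long chains, fell 1.84-fold, from 129, 127 and 124 CPM in mock to 72.0, 62.5 and 72.1 CPM in tatcre libraries (edgeR adjusted p = 3.8e-05). Hadhb encodes the thiolase subunit of the same protein, and its start lies 273 bases from that of Hadha on the other strand. It was at 10.6, 8.08 and 9.88 CPM in mock and 8.20, 8.98 and 6.09 CPM in tatcre libraries, the groups overlapped and it was not called (edgeR adjusted p = 0.23, interval of the log2 fold change -0.68 to 0.08). Whether Hadha and Hadhb differ in their response was not tested. Acaa2, the thiolase for medium chains, was not called either, averaging 12.9 ± 0.824 CPM with mock treatment and 12.2 ± 0.501 CPM after TAT-CRE (mean ± SD, 3 libraries each; interval -0.33 to 0.17).

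The widest difference among the 36 genes was in the auxiliary enzymes for unsaturated fatty acids. Eci1 and Eci2 encode enoyl-CoA isomerases that shift a double bond so that the hydratase can act on it. Eci1 (chromosome 17, 24426683 to 24439316 in GRCm38) was at 13.7, 15.4 and 15.5 CPM in the mock libraries and 0.779, 0.376 and 0.682 CPM in the tatcre libraries, from 363, 416 and 363 and 19, 9 and 17 counts. All tatcre libraries were far below all mock libraries, at 4.12% of the mock mean, a 24.0-fold fall (log2 fold change -4.59, SE 0.22, edgeR adjusted p = 4.3e-07). By log2 fold change it was number 9 among the falls of all 15546 tested genes. Eci2 was at 34.4, 36.9 and 34.9 CPM in mock and 42.1, 40.9 and 39.3 CPM in tatcre libraries. Each tatcre library was above each mock library, by a small margin that missed the threshold (log2 fold change 0.20, edgeR adjusted p = 0.095); with upper-quartile factors and with library size alone it was called higher (edgeR adjusted p = 0.030 and 0.017). Decr1, the dienoyl-CoA reductase that removes a further double bond, was at 26.2, 23.9 and 25.2 CPM in mock and 11.2, 11.3 and 10.6 CPM in tatcre libraries, a 2.28-fold fall with no overlap (log2 fold change -1.19, SE 0.10, edgeR adjusted p = 2.0e-05).

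The electron transfer flavoprotein takes electrons from the acyl-CoA dehydrogenases and hands them, through its oxidoreductase, to ubiquinone. Etfb, its beta subunit, was a low-count gene, with 64, 43 and 41 counts in mock and 15, 12 and 12 in tatcre libraries. Its level was 2.42, 1.59 and 1.75 CPM in mock and 0.615, 0.501 and 0.481 CPM in tatcre libraries, a 3.58-fold fall with no overlap (edgeR adjusted p = 0.0066) and a wide interval of the log2 fold change, -2.73 to -0.95. Etfa, the alpha subunit, was at 22.8, 24.5 and 23.3 CPM in mock and 25.9, 27.5 and 27.1 CPM in tatcre libraries. Its tatcre libraries were all slightly higher, which missed the threshold (log2 fold change 0.19, edgeR adjusted p = 0.14; called higher with upper-quartile factors, 0.048, and library size alone, 0.029). Etfdh, the oxidoreductase, averaged 66.8 ± 7.88 CPM with mock treatment and 66.5 ± 2.80 CPM after TAT-CRE (mean ± SD, 3 libraries each) and was not called, with an interval of -0.22 to 0.21. Etfdh overlaps Ppid in RefSeq, which was called higher (log2 fold change 0.33, edgeR adjusted p = 0.019).

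**Figure D2:**
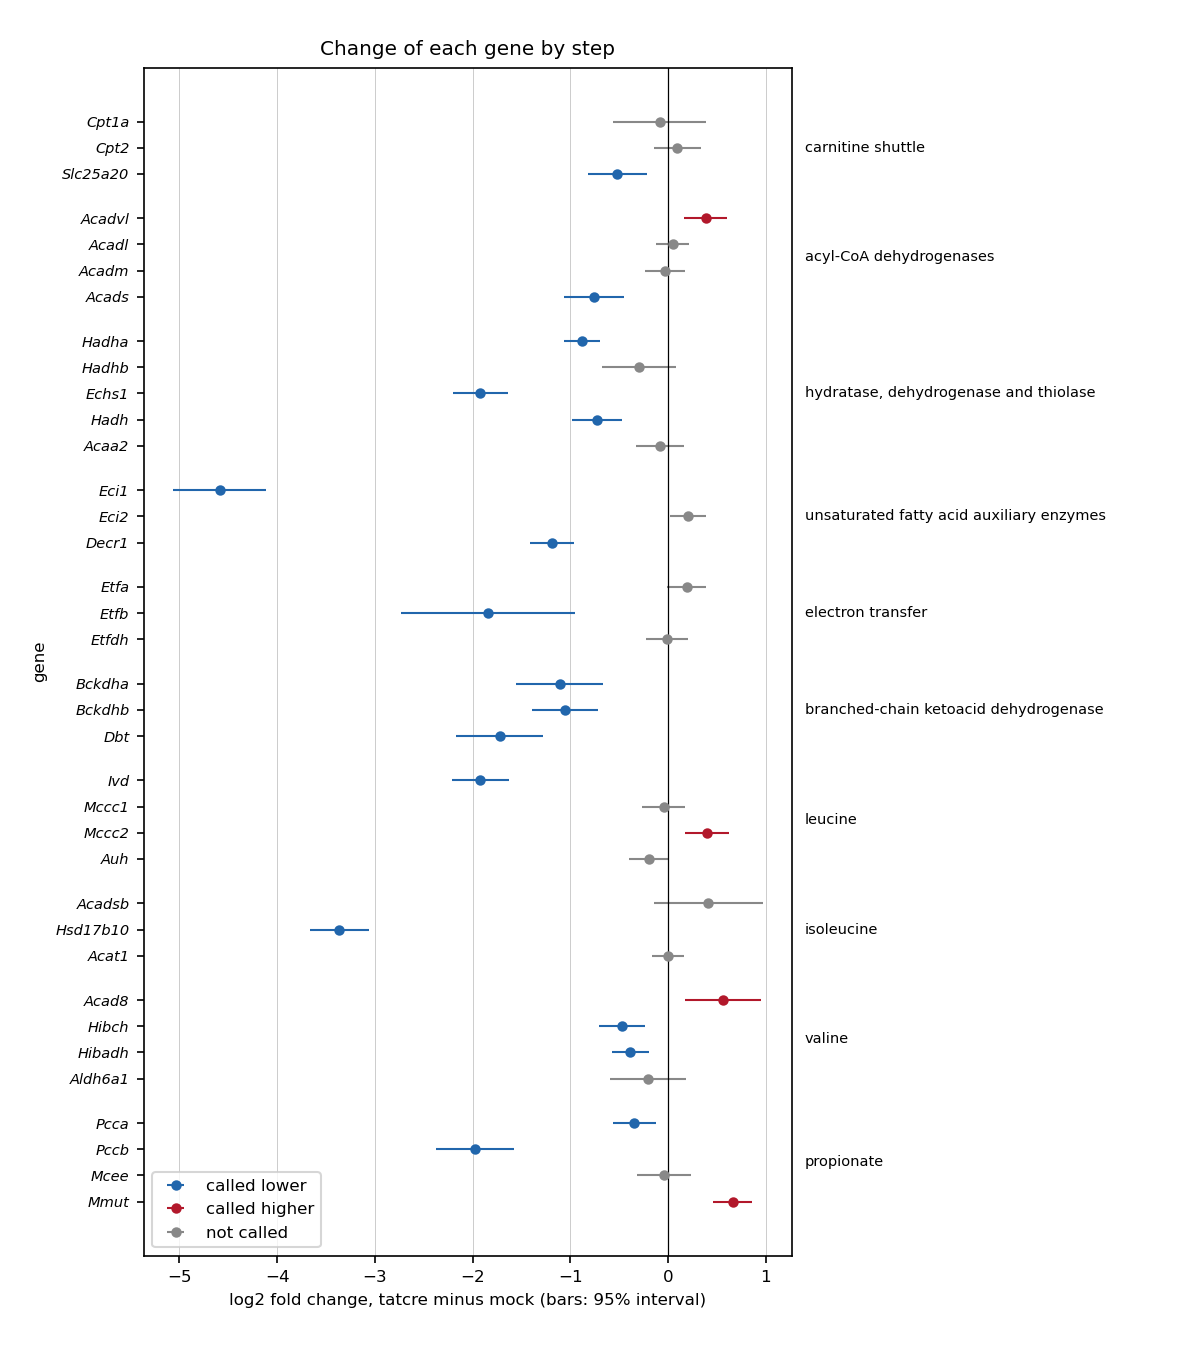
Log2 fold change of each gene, tatcre minus mock, with its 95% interval from the edgeR fit, ordered by pathway step. Blue genes were called lower (17), red ones higher (4) and grey ones not called (15); all 3 branched-chain ketoacid dehydrogenase genes lie at -1.05 or below.

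Branched-chain breakdown passes through the branched-chain ketoacid dehydrogenase complex, and all 3 of its listed genes fell more than 2-fold. Of all tested genes, 3.44% were called lower and at least 2-fold lower. Bckdha and Bckdhb encode the subunits of the decarboxylase, and Dbt the acyltransferase that forms the core. Bckdha was at 5.78, 6.52 and 6.17 CPM in mock and 3.57, 2.63 and 2.37 CPM in tatcre libraries, a 2.16-fold fall (log2 fold change -1.11, SE 0.20, edgeR adjusted p = 0.0024). Bckdhb was at 9.52, 10.9 and 8.69 CPM in mock and 4.47, 5.22 and 4.37 CPM in tatcre libraries, a 2.07-fold fall (log2 fold change -1.05, SE 0.15, edgeR adjusted p = 6.2e-04). Dbt fell 3.30-fold, from 40.4, 36.1 and 54.1 CPM in mock to 12.7, 17.2 and 9.62 CPM in tatcre libraries (log2 fold change -1.72, SE 0.20, edgeR adjusted p = 1.5e-04). No library of one group reached the other group for any of these 3, as for 23.3% of all tested genes with tatcre lower. Dbt had the widest spread, highest in mock 3 and lowest in tatcre 3. The pseudogene Gm4596 lies within Dbt and was counted separately, with a mean level of 45.0 ± 4.62 CPM in mock and 44.7 ± 3.85 CPM in tatcre libraries.

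In the leucine branch the gene of the first step after the complex fell, and none of the other 3 listed genes did. Among the 4 genes, 1 was called lower and 1 higher (25% each, against 16.3% and 10.8% of all tested genes). Ivd, isovaleryl-CoA dehydrogenase, was at 24.2, 24.9 and 22.1 CPM in mock and 6.60, 6.97 and 5.25 CPM in tatcre libraries. The groups were well apart, a 3.79-fold fall (log2 fold change -1.92, SE 0.13, edgeR adjusted p = 4.8e-06). The carboxylase that follows has a biotin-bearing subunit, Mccc1, which was not called, averaging 19.2 ± 1.01 CPM with mock treatment and 18.6 ± 0.903 CPM after TAT-CRE (mean ± SD, 3 libraries each; interval -0.27 to 0.18). Its other subunit, Mccc2, rose 1.32-fold, from 15.8, 15.3 and 13.8 CPM in mock to 19.4, 19.7 and 20.2 CPM in tatcre libraries (edgeR adjusted p = 0.015), a call lost without mock 3 (edgeR adjusted p = 0.076). Auh, the methylglutaconyl-CoA hydratase that also binds AU-rich RNA, was at 628, 538 and 555 CPM in mock and 553, 496 and 452 CPM in tatcre libraries. These overlapped and were not called (edgeR adjusted p = 0.14, interval of the log2 fold change -0.40 to 0.00).

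In the isoleucine branch, 2 of 3 genes were not called and 1, Hsd17b10, fell (33.3%, against 16.3% of all tested genes). It encodes a dehydrogenase of isoleucine breakdown that is also a subunit of the mitochondrial RNase P, which cuts tRNAs from mitochondrial transcripts. Hsd17b10 (chromosome X, 152001896 to 152004442 in GRCm38) was at 32.3, 32.1 and 29.98 CPM in the mock libraries and 2.46, 3.38 and 3.33 CPM in the tatcre libraries, from 856, 866 and 704 and 60, 81 and 83 counts. The tatcre mean was 9.71% of the mock mean, a 10.3-fold fall (log2 fold change -3.36, SE 0.14, edgeR adjusted p = 1.6e-07). The partner genes of RNase P were not called: Trmt10c, a tRNA methyltransferase subunit, averaged 57.1 ± 7.89 CPM with mock treatment and 57.1 ± 5.38 CPM after TAT-CRE, and Prorp, the nuclease subunit, 36.3 ± 1.37 and 37.2 ± 3.58 CPM (mean ± SD, 3 libraries each). Acat1, the thiolase that ends the branch, was at 131, 141 and 133 CPM in mock and 134, 133 and 138 CPM in tatcre libraries. Its groups overlapped, and the interval of the log2 fold change was -0.16 to 0.16. Acadsb, the dehydrogenase for short branched chains, varied widely between libraries, at 16.3, 12.3 and 23.3 CPM in mock and 20.1, 31.9 and 16.9 CPM in tatcre libraries. It was not called (edgeR adjusted p = 0.25, interval -0.15 to 0.97) except without the filter on low counts (edgeR adjusted p = 0.019, higher).

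In the valine branch the changes were smaller. Among the 4 genes, 2 were called lower and 1 higher (50% and 25%, against 16.3% and 10.8% of all tested genes). Hibch, the hydroxyisobutyryl-CoA hydrolase, fell 1.39-fold, from 30.9, 28.2 and 34.7 CPM in mock to 23.2, 23.7 and 20.7 CPM in tatcre libraries (edgeR adjusted p = 0.0079). Hibadh, the dehydrogenase that follows, fell 1.31-fold, from 44.2, 49.5 and 46.8 CPM in mock to 35.5, 34.7 and 37.4 CPM in tatcre libraries (edgeR adjusted p = 0.0069). Neither had overlapping groups, as for 23.3% of all tested genes with tatcre lower. Acad8, the isobutyryl-CoA dehydrogenase, was at 5.71, 4.82 and 5.79 CPM in mock and 6.31, 9.31 and 8.50 CPM in tatcre libraries. Its 1.48-fold rise (edgeR adjusted p = 0.036) was not called without mock 1, mock 2, mock 3, tatcre 2 or tatcre 3 (edgeR adjusted p = 0.061 to 0.134), so the call needed each of these 5 libraries. Aldh6a1, which makes propionyl-CoA from the last valine intermediate, was not called, averaging 6.61 ± 1.04 CPM with mock treatment and 5.74 ± 0.704 CPM after TAT-CRE (mean ± SD, 3 libraries each; interval -0.59 to 0.18).

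Propionate handling held a strong fall and the strongest rise of the 36 genes. Pccb, the carboxyltransferase subunit of propionyl-CoA carboxylase, was at 57.2, 59.1 and 72.9 CPM in mock and 17.3, 19.9 and 11.2 CPM in tatcre libraries. It fell 3.92-fold (log2 fold change -1.97, SE 0.18, edgeR adjusted p = 3.1e-05), and, as for Dbt, mock 3 was the highest and tatcre 3 the lowest library. Its partner Pcca, the biotin-bearing subunit, was at 24.4, 23.7 and 22.1 CPM in mock and 17.3, 18.3 and 19.7 CPM in tatcre libraries. This 1.27-fold fall (edgeR adjusted p = 0.026) was not called with upper-quartile factors, with library size alone, or without mock 1, mock 2 or tatcre 1 (edgeR adjusted p = 0.057 to 0.098). Mmut, the cobalamin-dependent methylmalonyl-CoA mutase, rose 1.58-fold, from 66.1, 63.7 and 70.4 CPM in mock to 105, 115 and 96.1 CPM in tatcre libraries (log2 fold change 0.66, SE 0.09, edgeR adjusted p = 3.9e-04). The groups were well apart, and this was the only rise called under all 14 alternatives. Mcee, the epimerase between carboxylase and mutase, was not called, averaging 10.2 ± 1.01 CPM with mock treatment and 9.93 ± 0.301 CPM after TAT-CRE (mean ± SD, 3 libraries each; interval -0.31 to 0.24).

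Taken by pathway, 8 of the 18 fatty acid oxidation genes fell and 1 rose (44.4% and 5.56%), with a median log2 fold change of -0.19. Of the 18 branched-chain and propionate genes, 9 fell and 3 rose (50% and 16.7%), with a median of -0.27. Over all tested genes these shares were 16.3% and 10.8%. Some protein partners differed in their calls and others did not. Hadha and Etfb fell at least 1.84-fold, while Hadhb and Etfa were not called. Mccc2 was called higher and Mccc1 was not called. Pccb and Pcca were both called lower, with falls of 3.92- and 1.27-fold, and Bckdha, Bckdhb and Dbt were all called lower. Whether the partners differ from each other was not tested. Genes with a motif match had a median log2 fold change of -1.54 (6 genes, 4 called lower: Eci1, Hsd17b10, Pccb and Bckdha), against -0.20 for the 25 without a match (11 called lower). Over all tested genes with a window, 317 of the 1019 with a match were called lower, against 1875 of all 10007. Read the other way, the motif was in 16.91% of these 1875 genes, 9.84% of 1220 called higher and 8.42% of 6912 not called. It was in 31.25% of the 32 genes that fell at least 8-fold, to which Eci1 and Hsd17b10 belong. Match and fall did not coincide throughout: Echs1, Ivd and Etfb fell 3.58- to 3.79-fold without a match, and Auh and Acadsb had a match and were not called.

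**Figure D3:**
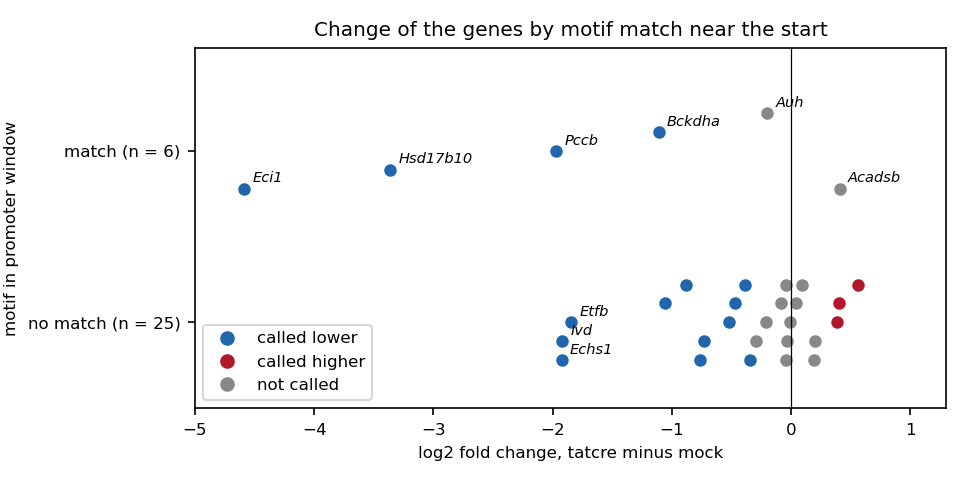
Log2 fold change, tatcre minus mock, of the 31 genes with a promoter window, split by whether AANATGGC lies in the window on either strand. Each point is a gene, coloured by its call and moved up or down only to keep points apart; 6 genes have a match, with Eci1 and Hsd17b10 farthest to the left.

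Other genes around these pathways were read from lists of neighbouring functions, which were also chosen with earlier results of these data known. Supply and control of branched-chain amino acids gave 5 falls and 1 rise among 9 tested genes (55.6% and 11.1%, against 16.3% and 10.8% of all tested genes). Bcat1, the cytosolic transaminase of the first step, fell 2.33-fold, from 139, 162 and 133 CPM in mock to 61.6, 52.3 and 72.8 CPM in tatcre libraries (edgeR adjusted p = 5.6e-05). Bcat2, its mitochondrial counterpart, fell 1.71-fold, mock libraries averaging 19.5 ± 1.80 CPM and tatcre libraries 11.4 ± 0.783 CPM (mean ± SD, 3 libraries each, edgeR adjusted p = 7.5e-04). Bckdk, the kinase that switches the ketoacid dehydrogenase off, rose 1.29-fold, mock libraries averaging 58.2 ± 4.31 CPM and tatcre libraries 75.1 ± 8.29 CPM (edgeR adjusted p = 0.02). Dld, the dehydrogenase subunit that this complex shares with others, was not called, averaging 349 ± 34.1 CPM in mock and 380.1 ± 22.8 CPM in tatcre libraries (edgeR adjusted p = 0.32), nor was Ppm1k, the phosphatase that switches the complex on.

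Fatty acid uptake and activation gave 6 falls and 3 rises among 22 tested genes, or 27.3% and 13.6%, against 16.3% and 10.8% of all tested genes. The lipid-binding protein gene Fabp5 fell 2.11-fold (52.3 ± 5.06 CPM in mock, 24.7 ± 2.39 CPM in tatcre libraries, edgeR adjusted p = 4.9e-05) and the fatty acid receptor gene Cd36 2.42-fold (65.5 ± 5.42 CPM in mock, 27.1 ± 6.41 CPM in tatcre libraries, edgeR adjusted p = 1.3e-04). Abhd5, an activator of triglyceride lipase, rose 1.85-fold (5.45 ± 1.05 CPM in mock, 10.1 ± 0.595 CPM in tatcre libraries, edgeR adjusted p = 0.0024). Peroxisomal beta-oxidation gave 2 falls and 2 rises among 15 tested genes (13.3% each, against 16.3% and 10.8% of all tested genes). Ech1, a dienoyl-CoA isomerase related to the enoyl-CoA isomerases, fell 5.88-fold, mock libraries averaging 16.7 ± 2.15 CPM and tatcre libraries 2.83 ± 0.638 CPM (edgeR adjusted p = 5.3e-06), and Ehhadh, the bifunctional enzyme, 2.54-fold. Decr2, the peroxisomal counterpart of Decr1, rose 1.57-fold, mock libraries averaging 7.54 ± 0.948 CPM and tatcre libraries 11.8 ± 0.963 CPM (edgeR adjusted p = 0.006). Further mitochondrial acyl-CoA enzymes gave 1 fall and 4 rises among 15 (6.67% lower, against 16.3% of all tested genes, and 26.7% higher, against 10.8%). The thioesterase gene Acot2 fell 3.87-fold (5.71 ± 0.445 CPM in mock, 1.47 ± 0.188 CPM in tatcre libraries), and Gcdh, glutaryl-CoA dehydrogenase of lysine breakdown, rose 1.39-fold (19.2 ± 1.07 CPM in mock, 26.7 ± 3.02 CPM in tatcre libraries). Acad12, a further acyl-CoA dehydrogenase gene, rose 2.77-fold (edgeR adjusted p = 0.026).

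Ketone body and HMG-CoA handling gave 4 falls and no rise among 7 tested genes (57.1% lower, against 16.3% of all tested genes). Acat2, the cytosolic counterpart of Acat1, fell 2.02-fold (86.6 ± 1.80 CPM in mock, 42.8 ± 4.001 CPM in tatcre libraries, edgeR adjusted p = 2.2e-05), and Aacs, acetoacetyl-CoA synthetase, 1.38-fold. Cofactor genes gave 5 falls and no rise among 15 (33.3% lower, against 16.3% of all tested genes). Mmachc, Mmadhc and Mmab, which process cobalamin, the cofactor of the mutase, fell 1.81-, 1.33- and 1.25-fold, opposite in direction to Mmut itself. The 10 genes not called included Mmaa, Mtr and Tcn2. Their log2 fold changes (0.49, 0.17 and 0.14) were positive, as for Mmut, while 11 of all 15 were negative. Genes that control oxidation gave 4 falls and no rise among 14 (28.6% lower, against 16.3% of all tested genes). Prkaa1, a catalytic subunit of AMP-activated kinase, fell 3.03-fold, from 73.5, 76.3 and 86.2 CPM in mock to 25.8, 27.5 and 24.6 CPM in tatcre libraries (edgeR adjusted p = 1.8e-06). The coactivator gene Ppargc1b fell 4.38-fold (4.97 ± 0.656 CPM in mock, 1.13 ± 0.132 CPM in tatcre libraries) and the nuclear receptor gene Rxra 4.69-fold (7.21 ± 2.19 CPM in mock, 1.54 ± 0.671 CPM in tatcre libraries). Ppara, the receptor best known for driving these enzymes in liver, had too few counts to be tested. In the TCA cycle, which takes up the products, 9 of 21 genes fell and none rose (42.9% lower, against 16.3% of all tested genes). The succinyl-CoA ligase subunit genes Suclg2 and Sucla2, just downstream of Mmut, fell 2.82- and 1.78-fold, and the succinate dehydrogenase subunit gene Sdhc 1.86-fold.

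**Figure D4:**
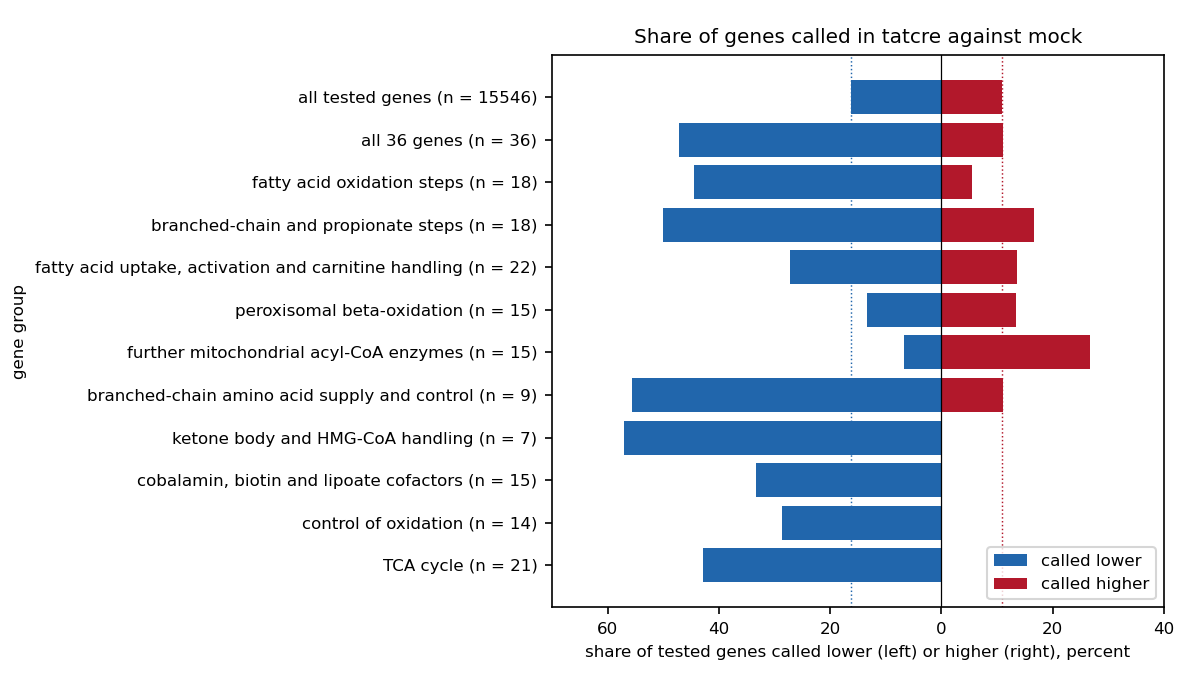
Share of tested genes called lower (bars to the left, percent) and higher (bars to the right, percent) in tatcre against mock, for all tested genes, the 36 genes and the neighbouring lists, with the number tested in brackets. Dotted lines mark the shares of all tested genes, 16.3% lower and 10.8% higher; the 36 genes reach 47.2% lower and 11.1% higher.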

How the data were processed

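Raw counts for each Ensembl gene were deposited, 1 file per RNA library. The notes on processing from the submitters name build mm10, HTSeq, TopHat2, SAMtools and Trimmomatic (per the submitters' processing notes). The sources used here do not give versions, annotation, strand setting or how multiply placed reads were counted, so overlapping, antisense and near-identical genes carry that uncertainty. IDs were matched to symbols (48349 of 48795). The 36 genes and the other lists were chosen with earlier results of these data known.

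Genes passed edgeR's filterByExpr (minimum count 10, minimum total 15; 15546 genes), TMM gave the scaling, and the groups were compared with the quasi-likelihood test of edgeR (version 4.0.16, limma 3.58.1, DESeq2 1.42.0, R 4.3.3) with Benjamini-Hochberg adjustment at 0.05. The test was tested on simulated data. Fold changes, SE and 95% intervals come from the fit. Where a library had 0 counts, the limit is 3 counts (0.111 to 0.128 CPM), which covers counting error only. No replicates agreed within sampling noise (chi-square per degree of freedom 7.50 or more within groups). The rule for named genes took all 36 genes, with each library's value where called, and from each other list up to 3 called genes by smallest adjusted p; 1 gene that the rule takes is not reported here. Other genes named were chosen after their values were seen. Levels were not compared between genes, since transcript lengths were not used. The 3 YY1 ChIP peak lists (1 library each) were not used. Alternatives were RLE factors, upper-quartile factors, library size alone, no filter on low counts, a stricter filter (mean log2 CPM of at least 2), a replicate block, DESeq2, limma-voom, and leaving out each library in turn.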

Additional observations from a re-analysis of the deposited data

How the results depend on the processing

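Of the 17 falls, 15 were called under every one of the 14 alternatives that tested them, and Slc25a20 and Pcca were not. Of the 4 rises, 1 (Mmut) was. The number of the 36 genes called lower was 15 to 17 throughout, and the number called higher was 3 to 6 except without single libraries, where it ran from 1 to 3. The median log2 fold change was -0.145 with library size alone, and -0.334 to -0.146 when single libraries were left out. Signs turned only for genes that were not called in either fit. With library size alone these were Cpt1a (0.0127), Acadm (0.0739), Acaa2 (0.023), Etfdh (0.0954), Mccc1 (0.0609) and Mcee (0.0662), with upper-quartile factors Acadm (0.0367), Etfdh (0.0595), Mccc1 (0.025) and Mcee (0.0309), and with RLE factors and DESeq2 Etfdh (0.00564 in both). Acat1 turned to -0.029 without the filter on low counts. Leaving out libraries, Cpt1a ran from -0.24 to 0.182, Acadm from -0.132 to 0.0347, Etfdh from -0.084 to 0.088, Mcee from -0.101 to 0.0442 and Acat1 from -0.0257 to 0.0267. The cause was not tested. With the replicate number as a replicate block, 16 genes were lower and 3 higher (Pcca -0.344, adjusted p = 0.0687; Acad8 0.552, adjusted p = 0.0689). Equal numbers did not clearly pair libraries: their deviations correlated at 0.056, -0.032 and 0.23, and 3 of 6 libraries correlated best with their own number. Depth limits Etfb and Eci1 most, with 9 to 19 counts in the tatcre libraries.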

Other observations

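Several of the genes start within 1000 bases of a gene on the other strand, and the calls of such pairs did not always match. Exosc5, an RNA exosome subunit gene 392 bases from Bckdha, had 16.1 ± 1.41 CPM in mock and 11.6 ± 0.962 CPM in tatcre libraries (mean ± SD, 3 libraries each) and was called lower, like Bckdha (log2 fold change -0.47, edgeR adjusted p = 0.014). Thyn1, 128 bases from Acad8, was called higher like Acad8, with 34.0 ± 2.84 and 43.2 ± 3.22 CPM (log2 fold change 0.34, edgeR adjusted p = 0.023). Mphosph10, 386 bases from Mcee, was called lower while Mcee did not pass the threshold (Mphosph10 log2 fold change -0.48, edgeR adjusted p = 0.0058). Ikzf5, 123 bases from Acadsb, and Lin52, 484 bases from Aldh6a1, were not called, nor were their neighbours. The cause of matching or differing calls was not tested.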
